A study of Mus musculus with 4 samples.

Results

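DNA replication and nucleotide synthesis genes are the set described here: 49 genes, named one by one in a list and looked up by symbol among the 32200 gene symbols of the deposited count tables. All 49 were found. They divide by role into 5 genes of origin licensing, 12 of the replicative helicase, 8 of the polymerases and primase, 7 of the sliding clamp and its loader, 3 of the single-strand binding protein RPA, 2 of fragment joining, 6 of deoxynucleotide synthesis and 6 of replication-linked chromatin assembly and uracil repair. Transcripts were counted cell by cell in mouse corpus, the stomach region that makes acid, with a 3' capture method (PIPseq T20) that counts molecules by unique identifiers (UMIs). The animals were C57BL6/J wild-type mice, 6 to 7 weeks old. L635, which injures parietal cells (the cells that secrete acid), was dosed once by mouth at 350 mg/kg. One group received PBS and is called untreated. The others were sampled 1 day after L635 (day 1), 3 days after it (day 3), or 3 days after it with added AREG, which is amphiregulin, a ligand of the EGF receptor (AREG). For AREG the dose, route and schedule were not found in the labels, nor was the number of mice behind each library. Each group is a single library, so differences between groups have no replicates behind them and were not tested. Intervals in parentheses are exact 95% intervals for counting error alone.

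A cell copies its DNA in S phase. In G1 the origin recognition complex, CDC6 and CDT1 load the MCM2-7 ring onto origins, and geminin blocks reloading later in the cycle. CDC45 and the GINS complex turn the ring into a working helicase, polymerase alpha and primase lay primers, polymerases delta and epsilon extend them, PCNA clamps the polymerases to DNA, and ribonucleotide reductase supplies deoxynucleotides. Many of these genes are transcribed at the G1/S boundary under E2F factors. In the resting corpus the dividing cells sit in the isthmus of the gland, between the pit cells above and the neck, parietal and chief cells below.

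Promoter sequences from RefSeq (build GRCm38.p6) were matched for 41 of the 49 genes. They were searched, because the genes differed in the same direction between libraries, for 8-letter strings that resemble the E2F site: TTTCCCGC, TTTGGCGC, TTTCGCGC and TTTGCCGC on either strand. Where a gene had several promoters listed, the first was used. In the 250 bases before the start, 9 of the 41 genes (22.0%) held such a string, against 1.91% of the 27025 genes with a promoter listed. In the whole window of 300 bases, which runs past the start, 14 of the 41 (34.1%) did, against 2.32%. The letters CCAAT, the core of the CCAAT box, on either strand were in the 250 bases of 25 of the 41 (61.0%) and of 34.5% of all genes with a promoter listed. An E2F-like string and a CCAAT can overlap by no more than 1 end base. A match describes letters only and not a bound site. The 9 genes were Orc1, Hells, Mcm5, Mcm6, Mcm7, Gins3, Pola1, Rfc3 and Cdc6. Only these exact strings were counted. The bases TTCCCGC, a searched string without its first T, lie before the start of Chaf1a, Rrm1, Uhrf1 and Prim1, which count as genes without a match. The 5 of the 9 genes with a match close to the start are shown, as the last 120 bases before the start. They run 5′ to 3′ on the gene's strand, with E2F-like strings in capitals. Chaf1a is set beside them as a gene with a large day 1 ratio and no match to the searched strings.
Orc1, chr4:108579334-108579453, plus strand: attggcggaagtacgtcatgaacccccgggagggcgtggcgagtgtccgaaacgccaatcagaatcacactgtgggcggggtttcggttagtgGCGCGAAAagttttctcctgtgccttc
Mcm6, chr1:128359706-128359825, minus strand: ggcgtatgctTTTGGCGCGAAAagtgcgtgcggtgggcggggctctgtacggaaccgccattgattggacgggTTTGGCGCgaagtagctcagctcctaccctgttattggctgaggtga
Hells, chr19:38930870-38930989, plus strand: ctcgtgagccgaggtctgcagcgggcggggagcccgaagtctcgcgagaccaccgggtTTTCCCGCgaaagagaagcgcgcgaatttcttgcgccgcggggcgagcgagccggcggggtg
Gins3, chr8:95633439-95633558, plus strand: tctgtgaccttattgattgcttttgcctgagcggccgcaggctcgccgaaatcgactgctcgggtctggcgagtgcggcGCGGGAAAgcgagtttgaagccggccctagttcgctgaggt
Rfc3, chr5:151651209-151651328, minus strand: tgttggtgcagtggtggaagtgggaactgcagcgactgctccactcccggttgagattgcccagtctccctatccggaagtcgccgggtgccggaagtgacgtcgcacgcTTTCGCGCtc
Chaf1a, chr17:56040296-56040415, plus strand: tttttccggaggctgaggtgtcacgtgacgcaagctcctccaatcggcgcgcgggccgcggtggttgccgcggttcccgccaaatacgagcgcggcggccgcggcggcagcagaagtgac
The match nearest the start began at position -27 in Orc1, -47 in Mcm6, -62 in Hells, -41 in Gins3 and -10 in Rfc3, where -1 is the base just before the start. Mcm6 held 3 matches, of which the pair farthest from the start overlap and are read on opposite strands. The median log2 ratio of day 1 to untreated was 1.31 over the 9 genes with a match and 1.00 over the 32 without. These medians describe the genes and were not tested.

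The libraries held 98893436 (untreated), 56007532 (day 1), 62591649 (day 3) and 81286332 (AREG) UMIs, and 13897, 3926, 7986 and 12923 barcodes passed as cells. Of these, 13876, 3743, 7978 and 12912 fell in epithelial clusters, with median UMIs per cell of 2507 to 3013.5 over all cells, and libraries shared 0 to 3 cell barcodes. Epithelial marker genes were present in every library. Within the cells kept as epithelial, summed B cell, T cell and fibroblast markers were at most 2.52 CPM (counts scaled to a library total of 1000000). Myeloid markers were at most 5.02 CPM, mast cell markers 24.4 CPM and endothelial markers 46.0 CPM in any library. Clusters that scored as other cell types had been left out, so these low values follow in part from that choice. Values below are UMIs summed over epithelial cells and scaled to CPM, so fewer cells that express a gene and less RNA per cell cannot be told apart. On this scale most genes were higher in the day 1 and day 3 libraries than in untreated. The median log2 ratio to untreated was 0.53 at day 1, over 15186 genes with at least 50 UMIs in the 2 libraries, and 0.62 at day 3, over 15584 genes. The medians were 0.18 and 0.30 once the abundant genes were dropped, meaning mitochondrial, ribosomal protein and haemoglobin genes plus the next 20 by abundance.

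Summed over the 49 genes, the day 1 library had the highest level and the day 3 library the lowest. Their summed level was 796 CPM (789 to 803) in untreated, 1546 CPM (1534 to 1559) at day 1, 478 CPM (471 to 484) at day 3 and 536 CPM (529 to 542) in the AREG library. RNA in near-empty barcodes under 50 UMIs, which is mostly free RNA, followed the same order, at 680, 1513, 484 and 488 CPM. Its part in the cell values was not tested.

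Between untreated and day 1, 25 of the 49 genes (51.0%) were at least 2-fold higher and 0 were at least 2-fold lower. Among all genes 27.0% were at least 2-fold higher and 5.18% lower, 4099 and 786 of 15186. Relative to the median of all genes, 10 of the 49 (20.4%) were at least 2-fold higher, beside 9.11% of all genes (1383 higher and 1700 lower). Without the abundant genes the count was 14 (28.6%), beside 2107 of 15056 genes (14.0%) higher and 1259 (8.36%) lower. The members' median log2 ratio was 1.03, or 0.50 above that of all genes, and single genes ran from -0.28 (Pclaf) to 2.10 (Pole).

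All 49 genes were lower at day 3 than at day 1, and 40 (81.6%) were at least 2-fold lower. Of all genes 7.54% were at least 2-fold lower and 9.07% higher. The median log2 ratio was -1.78, with all genes at 0.07, and the least difference was Rpa3 at -0.29. These 2 comparisons share the day 1 library. Set beside the untreated library, day 3 had 18 genes at least 2-fold lower and 0 higher, where 2.80% of all genes were lower and 26.8% higher. The median there was -0.71, with all genes at 0.62, so that it lay 1.33 below all genes. Without the abundant genes 29 genes (59.2%) were at least 2-fold lower, beside 4.74% of all genes lower and 11.3% higher. Relative to the all-gene median 34 (69.4%) were, beside 8.28% of all genes lower and 4.84% higher. Under either scaling 0 members were at least 2-fold higher.

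Between day 3 and day 3 with AREG, 0 of 49 genes differed by 2-fold, where 0.458% of all genes were at least 2-fold higher and 1.53% lower. The median log2 ratio was 0.07 and the range -0.30 (Pola1) to 0.86 (Pclaf).

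**Figure D1:**
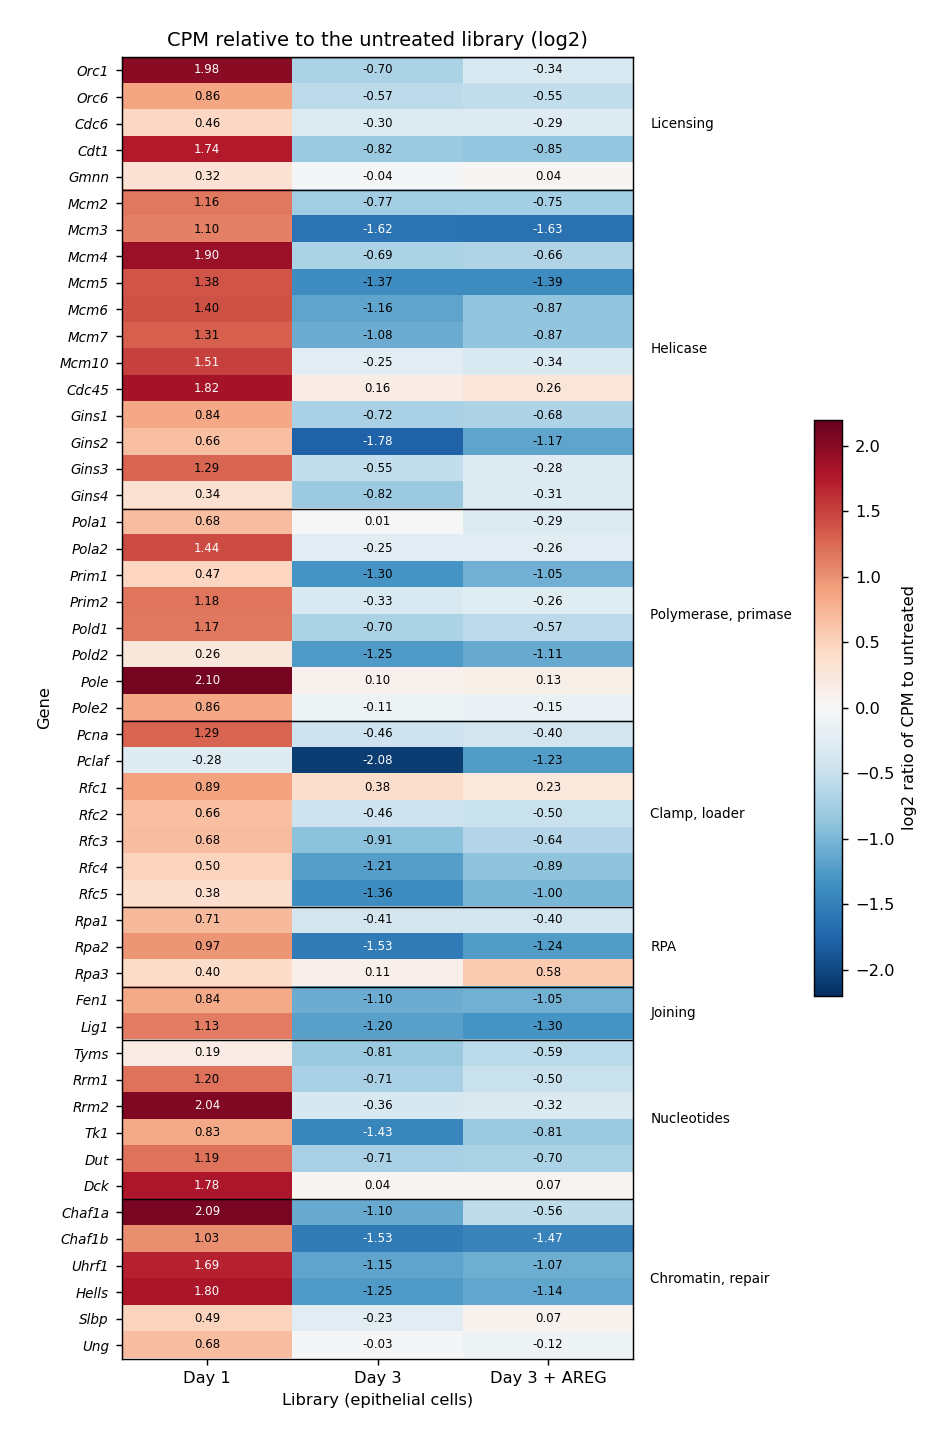
Log2 ratio of CPM in epithelial cells of each treated library to the untreated library, for the 49 genes in rows grouped by role, with 1 library per column. Every gene but Pclaf is above 0 at day 1 (Gmnn, Gins4, Pold2 and Tyms fall just under 0 when abundant genes are left out), and the day 3 column runs from -2.08 (Pclaf) to 0.38 (Rfc1).

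The origin licensing genes differed widely in size at day 1. Orc1, the largest ORC subunit, stood at 1.12 CPM in untreated, 4.42 at day 1, 0.69 at day 3 and 0.887 with AREG, from 69, 171, 29 and 46 UMIs. Its log2 ratio of day 1 to untreated was 1.98 (1.57 to 2.41), the largest in the group. Cdt1, the loader that brings the MCM ring to ORC, had levels of 8.13, 27.2, 4.59 and 4.51 CPM in the same order. Orc6 and Cdc6 were 1.82-fold and 1.38-fold higher at day 1 than in untreated. Gmnn, which encodes the CDT1 inhibitor geminin, was almost level across libraries: 32.8, 41.0, 31.8 and 33.7 CPM. Its day 1 log2 ratio of 0.32 (0.23 to 0.42) turned to -0.02 without the abundant genes, and its day 3 to day 1 ratio of -0.37 was the second smallest of the 49. At day 3 the licensing factor Cdt1 was thus 5.92-fold below day 1 and its inhibitor Gmnn 1.29-fold below.

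The 6 subunits of the MCM2-7 ring had similar profiles over the libraries. Mcm2 stood at 11.9 CPM in untreated, 26.7 at day 1, 6.97 at day 3 and 7.07 with AREG. Mcm3 stood at 23.1, 49.5, 7.49 and 7.44 CPM, and Mcm4 at 8.27, 30.8, 5.11 and 5.22 CPM. Mcm4 had the largest day 1 ratio of the ring, 3.72-fold, and Mcm3 the smallest, 2.14-fold. Mcm5 stood at 18.3, 47.8, 7.09 and 7.00 CPM in the same order. Mcm6 stood at 28.5, 75.3, 12.7 and 15.6 CPM, and Mcm7 at 21.3, 52.7, 10.0 and 11.7 CPM. All 6 were highest at day 1 and lower in both day 3 libraries than in untreated. From day 1 to day 3 they were 3.83-fold (Mcm2) to 6.74-fold (Mcm5) lower. With AREG, Mcm2, Mcm3, Mcm4 and Mcm5 had log2 ratios to day 3 between -0.02 and 0.03, while Mcm6 was at 0.29 (0.13 to 0.45) and Mcm7 at 0.22 (0.03 to 0.40). Of the 9 promoters with an E2F-like string, 3 belong to the ring (Mcm5, Mcm6 and Mcm7).

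The factors that start the helicase differed by degree. Their day 1 log2 ratios ran from 1.82 (Cdc45) to 0.34 (Gins4), with Gins3 (1.29) and Gins1 (0.84) between. Cdc45, the helicase's activating partner, stood at 4.54 CPM in untreated, 16.1 at day 1, 5.09 at day 3 and 5.43 with AREG, so that day 3 was close to untreated on the CPM scale. Mcm10, a firing factor, was similar, with 3.54, 10.1, 2.97 and 2.79 CPM. Gins2, a subunit of the GINS complex, was 15.1, 23.7, 4.38 and 6.71 CPM, 1.57-fold higher at day 1 and then far under untreated at day 3, by a log2 ratio of -1.78. Gins4 was 13.5, 17.1, 7.63 and 10.9 CPM, and its day 1 ratio of 0.34 was -0.01 without the abundant genes. Gins2 and Gins4 were among the 5 genes with the highest ratios of AREG to day 3, 0.62 (0.35 to 0.88) and 0.52 (0.32 to 0.72), while Gins1 was at 0.04 and Gins3, with 50 and 74 UMIs, at 0.26 (-0.28 to 0.81). In all, 9 of 12 helicase genes were at least 2-fold higher at day 1, beside 27.0% of all genes. That count was 5 without the abundant genes, beside 14.0% of all genes, and 2 relative to the all-gene median, beside 9.11%. At day 3, 12 of 12 were at least 2-fold lower than at day 1 under all 3 scalings, beside 7.54% of all genes on the CPM scale.

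Among the polymerase and primase genes the catalytic subunit of polymerase epsilon had the largest day 1 ratio of all 49. Pole stood at 1.93 CPM in untreated, 8.27 at day 1, 2.07 at day 3 and 2.12 with AREG, a 4.29-fold difference at day 1 (log2 2.10, 1.79 to 2.42) from 119 and 320 UMIs. Its partner Pole2 was 1.81-fold higher. Pold2, the accessory subunit of polymerase delta, was near the other end: 29.6, 35.4, 12.5 and 13.7 CPM, with a day 1 log2 ratio of 0.26 that turned to -0.09 without the abundant genes. The catalytic subunit gene Pold1 was 2.25-fold higher at day 1, so the ratios of these subunits differed. Pola1, the catalytic subunit of polymerase alpha, stood at 6.47, 10.4, 6.52 and 5.28 CPM. It had the lowest ratio of AREG to day 3 of the set, -0.30 (-0.55 to -0.06). Pola2, Prim1 and Prim2, the other subunits of the same complex, were 2.71-fold, 1.39-fold and 2.26-fold higher at day 1 than in untreated and 3.22-fold, 3.43-fold and 2.85-fold lower at day 3 than at day 1, against 1.60-fold for Pola1.

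Pcna, the sliding clamp, had 7023 of the 59812 member UMIs at day 1, more than any other member. Its level was 74.3 CPM in untreated, 182 at day 1, 54.1 at day 3 and 56.1 with AREG. Pclaf, a small PCNA-binding protein, went against the others. It stood at 37.6, 31.0, 8.89 and 16.1 CPM: it was the 1 gene lower at day 1 than in untreated (log2 -0.28, -0.38 to -0.18), and it had both the lowest day 3 to untreated ratio, -2.08, and the highest AREG to day 3 ratio, 0.86 (0.68 to 1.04). The clamp loader gene Rfc1, which encodes the large subunit, was 9.36, 17.3, 12.2 and 10.9 CPM and was the gene with the highest day 3 to untreated ratio, 0.38, which is below the all-gene median of 0.62. The small subunits Rfc2, Rfc3, Rfc4 and Rfc5 were 1.30-fold to 1.60-fold higher at day 1 and 2.17-fold to 3.35-fold lower at day 3 than at day 1, where Rfc1 was 1.42-fold lower. Pcna was the 1 gene of 7 in this group past 2-fold at day 1, beside 27.0% of all genes at least 2-fold higher. That count was 0 without the abundant genes, beside 14.0% of all genes, and 0 relative to the all-gene median, beside 9.11%.

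RPA coats single-stranded DNA. Rpa3, its smallest subunit, stood at 21.8 CPM in untreated, 28.8 at day 1, 23.5 at day 3 and 32.6 with AREG, so its highest level was in the AREG library and not at day 1. Rpa2 went from 24.9 CPM at day 1 to 4.38 at day 3, 5.68-fold lower, and Rpa1 from 25.8 to 11.8. For fragment joining, Lig1, the ligase that seals Okazaki fragments, stood at 14.6, 31.9, 6.35 and 5.90 CPM, and Fen1, the flap nuclease, at 13.4, 24, 6.25 and 6.46 CPM. Both were at least 2-fold lower at day 3 than in untreated as well as than at day 1.

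The 6 deoxynucleotide genes were all higher at day 1 on the CPM scale, as were 11546 of all 15186 genes. Of the 6, 4 were at least 2-fold higher, beside 27.0% of all genes. That count was 2 without the abundant genes, beside 14.0% of all genes, and 2 relative to the all-gene median, beside 9.11%. Tyms turned to a log2 ratio of -0.16 without the abundant genes. The 2 subunits of ribonucleotide reductase, which makes deoxynucleotides from ribonucleotides, differed in size. Rrm1, the large subunit, stood at 27.1 CPM in untreated, 62.3 at day 1, 16.6 at day 3 and 19.2 with AREG. Rrm2, the small subunit and the one limited to S phase, stood at 16.3, 67.2, 12.7 and 13.1 CPM, 4.12-fold higher at day 1 (log2 2.04, 1.94 to 2.15). Dck, a salvage kinase for deoxycytidine, stood at 6.28, 21.6, 6.44 and 6.57 CPM, and Dut, the dUTPase that keeps uracil out of DNA, at 24, 54.6, 14.7 and 14.8 CPM. Tk1, the thymidine salvage kinase, stood at 40.1, 71.2, 14.8 and 22.9 CPM, and its ratio of AREG to day 3 was 0.62 (0.48 to 0.77), the second highest of the set. Tyms, which makes thymidylate anew, stood at 46.5, 53.0, 26.5 and 30.8 CPM. The enzymes of thymidylate supply, Tk1 and Tyms, had the 2 smallest day 1 ratios of the group, 0.83 and 0.19.

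Of the genes that act on chromatin behind the fork, Chaf1a, Hells and Uhrf1 had the 3 largest day 1 to day 3 differences of the set. Chaf1a, the large subunit of the histone chaperone CAF-1, stood at 2.50 CPM in untreated, 10.6 at day 1, 1.17 at day 3 and 1.70 with AREG, from 154, 411, 49 and 88 UMIs. It was 9.12-fold lower at day 3 than at day 1 (log2 -3.19, -3.65 to -2.76). Hells, a chromatin remodeller, followed at 7.71, 26.8, 3.23 and 3.51 CPM, and Uhrf1, which brings the maintenance DNA methyltransferase to the fork, at 7.77, 25, 3.50 and 3.70 CPM. They were 8.30-fold and 7.16-fold lower at day 3 than at day 1, and the second CAF-1 subunit gene Chaf1b 5.92-fold lower. Slbp, which binds histone mRNA stem-loops, and Ung, the uracil-DNA glycosylase, were nearer level. Ung stood at 10.1, 16.2, 9.92 and 9.31 CPM, and Slbp was 1.41-fold higher at day 1 and 1.65-fold lower at day 3.

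**Figure D2:**
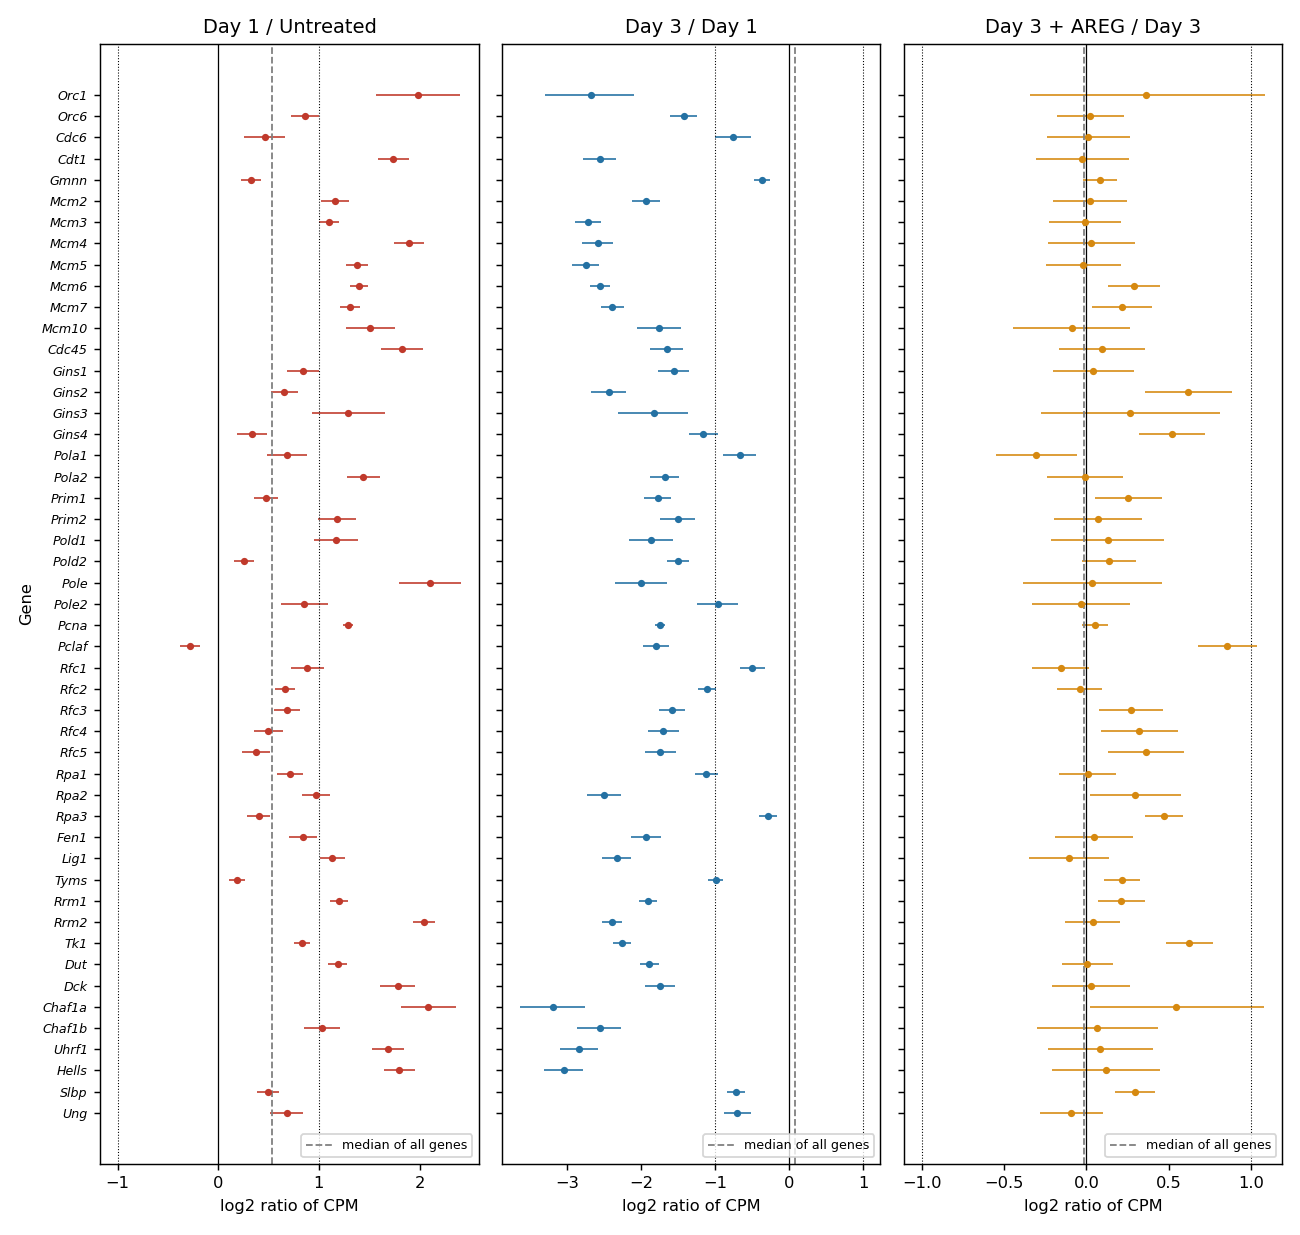
Log2 ratios of CPM for the 49 genes in 3 comparisons, with points for the ratios, bars for exact 95% counting intervals, a dashed line at the median of all genes and dotted lines at 2-fold, on a different horizontal scale in each panel. Day 1 ratios spread from -0.28 to 2.10 around an all-gene median of 0.53 (Gmnn, Gins4, Pold2 and Tyms change sign without abundant genes), day 3 to day 1 ratios are all under 0, and AREG to day 3 ratios stay within 2-fold.

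In UMIs summed over all epithelial cells, the balance between replication and mitosis genes was similar in the first 3 libraries and differed with AREG. A list of 20 mitosis genes such as Mki67, Cdk1 and Ccnb2 shares no member with the set. It summed to 323 CPM in untreated, 588 at day 1, 191 at day 3 and 356 with AREG. Replication UMIs per mitosis UMI were 2.46 (2.42 to 2.50), 2.63 (2.59 to 2.67), 2.50 (2.43 to 2.56) and 1.51 (1.48 to 1.53). With each cell weighted equally the first 3 libraries were less alike. Untreated was then at 3.12 and day 3 at 3.18, while day 1 stayed within its interval. In the AREG library mitosis genes were thus close to the untreated level while replication genes were near the day 3 level. From day 3 to AREG the mitosis list had a median of 1.81-fold higher, with 20 of 20 genes higher and 6 at least 2-fold, beside 1.05-fold for the 49 replication genes and 0.458% of all genes at least 2-fold higher. The replication genes with the highest AREG ratios (Pclaf, Tk1, Gins2, Chaf1a and Gins4) ranged from 1.43-fold to 1.81-fold. In the proliferating-like cells of cluster 5, described below, replication and mitosis genes stood at 2269 and 1561 CPM in untreated. The pairs were 2948 and 2758 CPM at day 1, 1987 and 2808 at day 3 and 1643 and 3058 with AREG. Mitosis genes were thus the higher of the pair there at day 3 as well as with AREG. From untreated to AREG these cells were 8.71%, 2.94%, 2.42% and 5.55% of epithelial cells. Their part in the ratios was not tested.

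Per cell the pattern was the same. After each epithelial cell was thinned to 500 UMIs, cells with at least 2 replication UMIs made up 7.21% (6.78 to 7.65) in untreated, 20.2% (18.9 to 21.5) at day 1, 3.42% (3.03 to 3.84) at day 3 and 4.0% (3.66 to 4.35) with AREG. No cell was too shallow for this depth, and without thinning the shares were 35.5%, 64.5%, 37.4% and 35.6%. As a background, parietal-like cells, a mature type that has left the cell cycle, gave 2.75%, 5.46%, 2.25% and 2.38% at the same thinned depth, from median UMIs of 1853, 4796, 4227 and 3595.5. In each library the share over all epithelial cells was above the parietal-like share. The intervals of the parietal-like shares were 2.28 to 3.28, 3.15 to 8.72, 1.64 to 3.00 and 1.89 to 2.96. Parietal-like cells were 30.9%, 7.83%, 24.6% and 25.4% of the epithelial cells, so a part is set beside the whole that holds it. The intervals describe counting within 1 library and were not used as a test. Most parietal-like cells were in cluster 0 in untreated, cluster 25 at day 1 and cluster 1 in both day 3 libraries. Cluster 25 was led by Obp2a, Ly6d, Hamp and Sprr1a. A cluster with the same first 4 leading genes scored as parietal-like in the finer clustering described below. It stayed unnamed when the members were kept in the clustering, so the day 1 background is less secure than the others. For the mitosis genes the thinned shares were 2.43%, 7.29%, 1.53% and 3.55%.

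**Figure D3:**
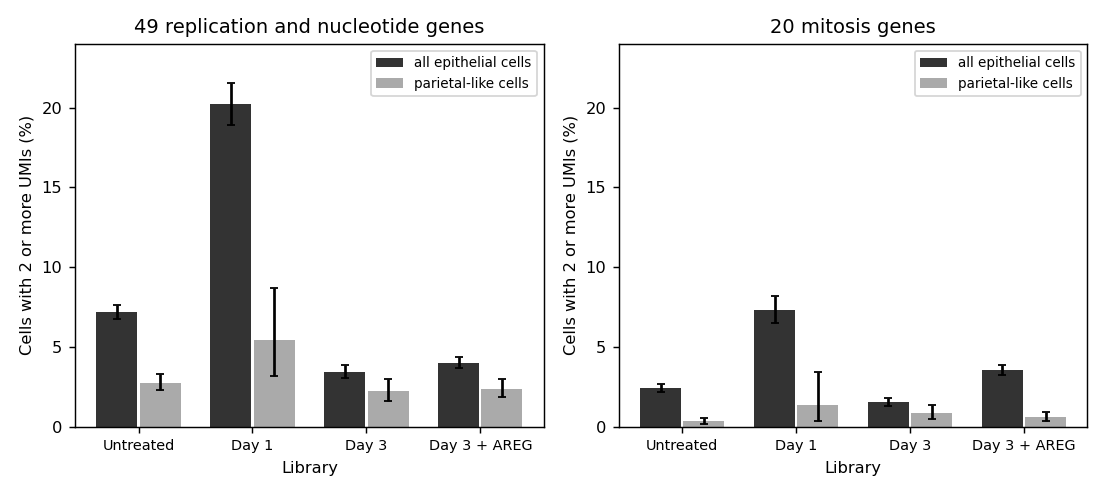
Percent of epithelial cells (dark) and of parietal-like cells (grey) with at least 2 UMIs of the 49 replication and nucleotide genes (left) or of the 20 mitosis genes (right), after thinning every cell to 500 UMIs, with exact 95% binomial intervals. Replication shares are 7.21%, 20.2%, 3.42% and 4.0% from untreated to AREG, and the AREG library is above untreated for mitosis genes (3.55% against 2.43%) and below it for replication genes.

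In cells thinned to 1000 UMIs the 2 programs could be read side by side. Of cells with at least 2 mitosis UMIs, 52.0% (48.0 to 56.0) also had at least 2 replication UMIs in untreated, 69.6% (64.6 to 74.3) at day 1, 39.6% (32.5 to 47.0) at day 3 and 32.1% (28.6 to 35.8) with AREG. Of cells with at least 2 replication UMIs, 19.6%, 27.3%, 14.7% and 22.6% had at least 2 mitosis UMIs. The shallower cells left out numbered 2941, 1040, 1579 and 2540.

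By cell class, clusters were made without the 49 genes, and classes were named from marker genes that are no members. Cluster 5, led by Ube2c, Cdc20 and Birc5 and called proliferating-like, was named from the 20 mitosis genes, whose level there is therefore a description. It held 1208, 110, 193 and 716 cells from untreated to AREG. Summed replication genes in it stood at 2269, 2948, 1987 and 1643 CPM, and mitosis genes at 1561, 2758, 2808 and 3058 CPM. Its cells held 47.1% of all epithelial replication UMIs in untreated, 0.597% at day 1, 19.8% at day 3 and 26.5% with AREG, beside 16.5%, 0.313%, 4.77% and 8.65% of all epithelial UMIs. The 110 day 1 cells were shallow, with a median of 818.5 UMIs against 2918 for the library's epithelial cells, and their values rest on 357 replication UMIs. Within cluster 5, AREG to day 3 had a median log2 ratio of -0.33 over 45 genes with enough UMIs, with all genes at -0.08. Mcm3, Hells and Lig1 were lowest there, at -0.98, -0.94 and -0.82, and 2 genes high in the AREG library as a whole, Pclaf and Tk1, were at 0.07 and -0.04. These cells were 5.55% of epithelial cells with AREG and 2.42% at day 3. By 2-fold calls, AREG and day 3 differed for 0 of the 45 genes, with 0.739% of all genes higher and 1.28% lower. For day 1 to untreated within cluster 5, 11 of 48 genes were at least 2-fold higher and 3 lower, beside 39.0% and 4.32% of all genes. For day 3 to day 1 the counts were 1 and 6 of 28, beside 10.5% and 7.01%, and for day 3 to untreated 1 and 2 of 48, beside 28.3% and 1.50%.

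At day 1 most epithelial UMIs lay in another cluster. Cluster 7, left unnamed and led by S100a6, Msln, Krt7 and Sprr1a, held 2577 of the 3743 day 1 epithelial cells, 88.5% of their UMIs and 93.3% of their replication UMIs, with replication genes at 1630 CPM. With 1 library per group, a cluster found almost only in 1 library may be that library and not a cell type. A finer clustering (Leiden resolution 2) divided these cells. Its cluster 13, also led by Msln, Krt7 and Sprr1a, had all 20 mitosis genes above the other cells. It held 1197 day 1 cells, 2533 CPM of replication genes, 1055 CPM of mitosis genes and 75.4% of day 1 replication UMIs, beside 46.0% of all day 1 epithelial UMIs. Its cluster 12, led by Ces2a, Cym and Psapl1, held 1392 day 1 cells with 647 and 149 CPM.

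Taking clusters 9 and 13 of the finer clustering as the cells with mitosis genes, they held 1198, 1317, 198 and 708 cells and 42.7%, 76.0%, 16.1% and 24.7% of epithelial replication UMIs, beside 15.3%, 46.4%, 3.95% and 8.08% of all epithelial UMIs. Genes differed in how far they kept to these cells. In untreated, Pclaf (65.7%), Rrm2 (65.5%) and Tk1 (58.4%) were the most concentrated, and Pola1 (21.1%), Rfc1 (22.7%), Ung (24.8%) and Gmnn (26.7%) the least. With AREG, Pclaf (65.9%) and Tk1 (61.0%) were highest and Ung (4.55%) and Rfc1 (8.10%) lowest. Rrm2 went from 65.5% in untreated to 23.7% at day 3 and 34.2% with AREG. Within these cells the median log2 ratio of the 49 genes was 0.31 for day 1 to untreated, -0.55 for day 3 to day 1 and -0.28 for AREG to day 3, against 1.03, -1.78 and 0.07 over all epithelial cells. All genes within these cells had medians of 0.59, 0.00354 and -0.06. The cells compared lay in different clusters by library: cluster 13 held 1197 of the 1317 day 1 cells, while cluster 9 held 1185 of 1198 untreated and 190 of 198 day 3 cells.

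**Figure D4:**
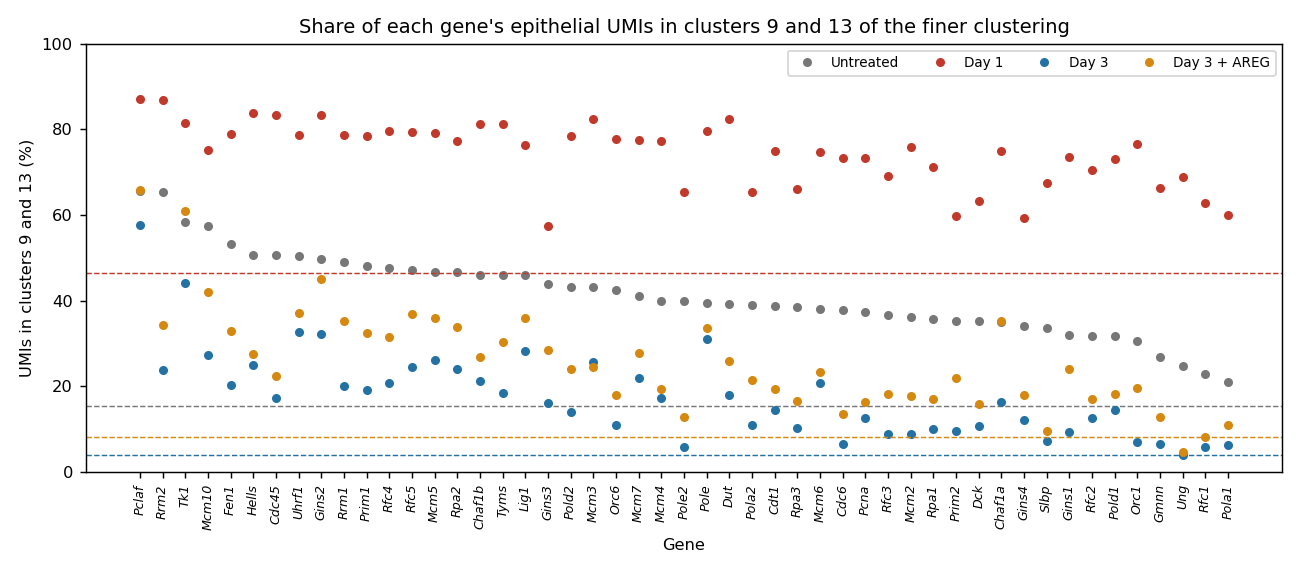
Percent of each gene's epithelial UMIs that lay in clusters 9 and 13 of the finer clustering, in each library (points), with genes ordered by the untreated value and dashed lines at the share of all epithelial UMIs in those cells (15.3%, 46.4%, 3.95% and 8.08%). Pclaf and Tk1 stay high in every library, and Ung lies just under the line at day 3 (3.84%) and under it with AREG (4.55%). Cluster 6 of that clustering, mostly untreated cells and also with mitosis genes, is not counted.

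Outside these cells the level of replication genes differed between classes. In untreated they stood at 568 CPM in parietal-like, 413 CPM in pit-like and 826 CPM in neck-like cells, and at day 3 at 452, 305 and 601 CPM. Near-empty barcodes held 680 CPM in untreated and 484 CPM at day 3, above the parietal-like and pit-like levels. The part of free RNA in these class levels was not tested. The chief-like cluster 17, led by Chia1 and Pla2g1b, had 86.5 CPM in untreated, and cluster 16, led by Amy2a5, had 108 CPM from 19 untreated cells. Cluster 3 (1818 untreated cells), led by Pga5 and A4gnt, had 1220 CPM of replication genes and 130 CPM of mitosis genes, the latter below the library's 323 CPM. It is given by number, since its markers scored as chief-like here and a cluster with the same leading genes scored as neck-like in the finer clustering. In the finer clustering, cluster 6 held 337 untreated cells led by Ccn1, Pga5 and Nr4a1, with 2005 CPM of replication and 867 CPM of mitosis genes. At day 1 neck-like cells had 1646 CPM, pit-like cells 1206 CPM and parietal-like cells 730 CPM, from 168, 397 and 293 cells. The neck-like and pit-like cells were shallow, with medians of 964 and 742 UMIs, and the near-empty barcodes of that library held 1513 CPM, so their levels are not read as expression of these classes.

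**Figure D5:**
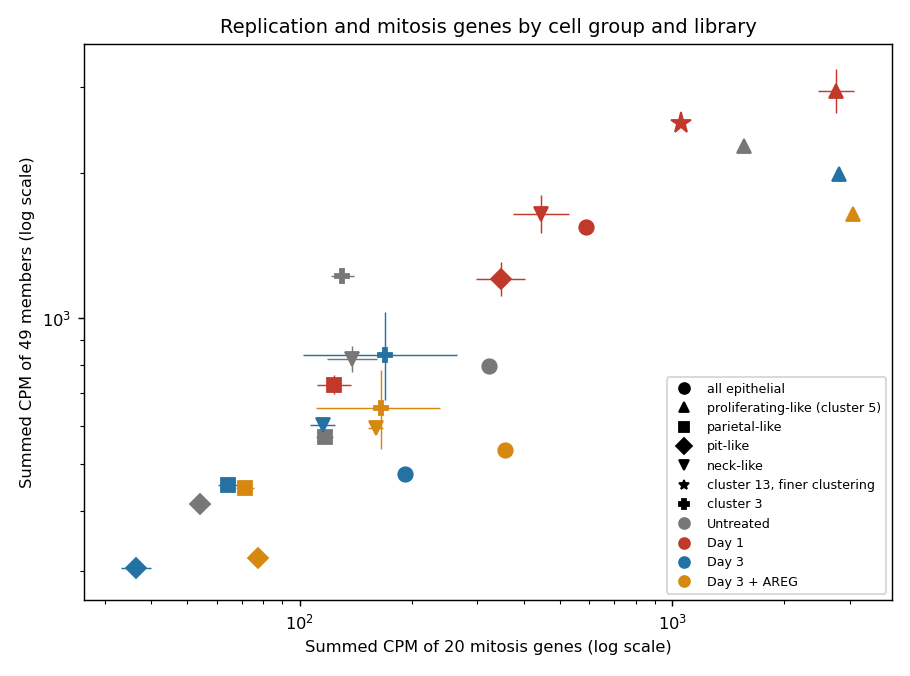
Summed CPM of the 49 replication and nucleotide genes against summed CPM of the 20 mitosis genes on log scales, by cell group (marker shape, groups of at least 50 cells) and library (colour), with exact Poisson 95% intervals. Cluster 3 of the untreated library lies high for replication genes at low mitosis levels (1220 against 130 CPM), and within the proliferating-like cluster 5 the AREG cells have the highest mitosis and the lowest replication level.

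Other genes of the pathway were taken from lists that hold no member. Of 33 further replication genes, 20 were at least 2-fold higher and 0 lower at day 1 than in untreated, beside 27.0% and 5.18% of all genes, with the highest log2 ratios for Chtf18 (2.69, an alternative clamp loader), Donson (2.61, a helicase assembly factor) and Dbf4 (2.07, the activator of the CDC7 kinase). The lowest were Pole3 (-0.08), Orc3 (0.20) and Rnaseh2b (0.35). Relative to the all-gene median 8 were at least 2-fold higher, beside 9.11% of all genes. At day 3, 16 of the 33 were at least 2-fold lower than at day 1, beside 7.54% of all genes. Of 29 further nucleotide genes, 6 were at least 2-fold higher at day 1, beside 27.0% of all genes. Relative to the all-gene median 3 were, beside 9.11%. Pfas (2.04), Mthfd1l (1.65) and Ctps (1.62), of purine, folate and CTP synthesis, were highest, and Prps2 (-0.65), Umps (-0.58) and Dguok (-0.36) lowest.

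Of 31 G1/S regulators, 20 were at least 2-fold higher and 1 lower at day 1, beside 27.0% and 5.18% of all genes. Relative to the all-gene median 10 were at least 2-fold higher, beside 9.11% of all genes. E2f8 (2.55), E2f1 (2.50) and Rbl1 (2.42), which encode E2F factors and a pocket protein that binds them, were highest. E2f1 stood at 2.09 CPM in untreated, 11.8 at day 1, 1.12 at day 3 and 1.56 with AREG. The lowest was Cdkn1c, a cyclin-dependent kinase inhibitor, at 20.3, 4.58, 25.6 and 17.5 CPM (log2 -2.15), followed by Ccnd2 (-0.32) and Cdk4 (0.03). Of 16 genes of replication stress and repair, 12 were at least 2-fold higher at day 1, beside 27.0% of all genes. Relative to the all-gene median 5 were, beside 9.11%. Brca2 (1.86), Brca1 (1.81) and Fancd2 (1.70) were highest and Blm (-0.14), Atrip (0.41) and Wee1 (0.66) lowest. Of the 20 mitosis genes 8 were at least 2-fold higher at day 1, beside 27.0% of all genes, and 2 relative to the all-gene median, beside 9.11%. Kif11 (1.85), Mki67 (1.79) and Cdk1 (1.46) were highest and Cdc20 (0.10), Ccnb2 (0.27) and Ckap2l (0.36) lowest. At day 3, 19 of the 20 were at least 2-fold lower than at day 1, beside 7.54% of all genes.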

How the data were processed

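Single-cell libraries of dissociated corpus epithelium (TrypLE with Y27632, 5 min at 37 C, 25000 cells loaded, per the labels' protocols) were used, 1 per group. The deposited values are raw UMI counts per gene and barcode, unfiltered. The build is mm39 (GRCm39) per the submitters' processing notes, and no source used here names the aligner. Of 32227 gene entries, 27 repeat a symbol, and the first was used. A barcode was kept as a cell from 500 UMIs and 200 genes upward, if mitochondrial UMIs made up no more than 50%. Counts scaled to 10000 per cell and logged, 2000 variable genes (no member, mitochondrial, ribosomal protein or haemoglobin gene), 40 components and 15 neighbours gave 27 Leiden clusters at resolution 1 (scanpy 1.11.5). Clusters were named from fixed marker lists, by a scoring rule set after the data were seen, with at least 3 markers higher by 0.5 (log2) and 1 among the 50 leading genes. Scrublet marked 0% to 0.188% of cells and is taken not to have worked, so doublets stayed in.

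Counts were summed over epithelial cells and compared as log2 ratios of CPM with no pseudocount, for genes with at least 50 UMIs in both libraries together. All 49 members passed this. A call is a 2-fold ratio. Intervals are exact Poisson (CPM), Clopper-Pearson (shares) and conditional binomial (ratios), and cover counting error only. The ratio code was tested on simulated data. Genes given in full were the 5 highest and 5 lowest ratios of each comparison, Mcm2 to Mcm7 and the nucleotide genes. From each other list the 3 highest and 3 lowest day 1 ratios were named, and others, such as Pcna, were added after their values were seen. The members and lists were chosen with earlier results of these data known. Alternatives covered cell filters, doublet scores, the deepest cells, a pseudocount, abundant genes, cell weights, thinning depth and clustering. Promoter letters came from a RefSeq table of GRCm38.p6, an older build than that of the counts.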

Additional observations from a re-analysis of the deposited data

Results flagged for a closer look

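In the day 1 library 867 of the 1271 Pola1 UMIs lay in 154 cells of cluster 26, outside the epithelial cells that the comparisons use, and this cluster had no cell in the other libraries. Nbea and St6galnac3 were among its leading genes, and it stayed unnamed. Pola1 stood at 1533 CPM there, Prim1 at 149 CPM (84 UMIs) and Prim2 at 77.8 CPM (44 UMIs), while Pcna stood at 14.1 CPM and Rrm2 at 1.77 CPM. Over all cells of the libraries the log2 ratio of day 1 to untreated for Pola1 was 2.32, against 0.68 in epithelial cells. The cause was not tested.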

How the results depend on the processing

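Over the alternatives, 1052 of 1176 single-gene ratios stayed within their counting interval, which for many AREG to day 3 ratios includes 0. All 49 day 3 to day 1 ratios kept their sign. Of the AREG to day 3 ratios, 14 changed sign with each cell weighted equally, 11 without the deepest 1% of cells, 10 without the highest doublet scores, 5 at 20% mitochondrial UMIs and 3 at 1000 UMIs per cell. Without the abundant genes, the day 1 to untreated median was 0.68 with 14 genes at least 2-fold higher, beside 14.0% of all genes. Relative to the all-gene median (chosen after seeing the data) it was 0.50 with 10, beside 9.11%. For day 3 to untreated (both also chosen after seeing the data) the medians were -1.03 with 29 genes at least 2-fold lower and -1.33 with 34. The shares of all genes at least 2-fold lower there were 4.74% and 8.28%. Some ratios turned although their counting interval excluded 0. Without the abundant genes these were the day 1 to untreated ratios of Gmnn (-0.0215), Gins4 (-0.00694), Pold2 (-0.0899) and Tyms (-0.159). With each cell weighted equally they were the AREG to day 3 ratios of Rfc5 (-0.111) and Rpa2 (-0.0369). Under that weighting 1 of the 49 genes was at least 2-fold higher with AREG than at day 3, beside 208 higher and 649 lower of all 15707 genes. Replication UMIs per mitosis UMI were then 3.12 (untreated), 3.18 (day 3) and 1.68 (AREG), while day 1 stayed within 2.59 to 2.67. Without the highest doublet scores that ratio was 2.40 in untreated, 2.39 at day 3 and 1.47 with AREG. It was 2.43 at day 3 and 1.46 with AREG at 20% mitochondrial UMIs, and 2.77 at day 1 and 2.75 at day 3 without the deepest 1% of cells. Thinned shares, from untreated to AREG, were 15.04%, 34.5%, 7.88% and 9.27% at 1000 UMIs, 23.5%, 43.0%, 18.6% and 20.3% with at least 1 UMI, and 2.98%, 9.75%, 1.04% and 1.29% with at least 3. Without the highest doublet scores they were 6.63% in untreated and 3.51% with AREG. The AREG ratio was the lowest of the 4 under each of these. The cause of these differences was not tested. No paired analysis was possible because each group has 1 library.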
